A study of Mus musculus with 26 samples.

Results

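Double-positive (DP) cells from the aortic arch were compared with DP cells from mediastinal adipose tissue. The comparison used every gene of the deposited table and all samples that the labels assign to these tissues, 17 of the series' 26 libraries, which form 8 of its 12 pools. All mice were female C57BL/6J aged 8 weeks with no genetic change or treatment named in the labels, and each pool joined the tissue of 5 mice. Arch and adipose tissue were both digested with enzymes, while for thymus, the source of the other 4 pools, no digestion is stated. Viable cells carrying CD4 and CD8b and lacking the T-cell receptor on their surface were sorted, 400 at a time, and each library was made from lysate equal to 200 cells. Polyadenylated RNA was copied to cDNA, amplified for 18 cycles and sequenced as single reads of 50 bp. The 9 arch and 8 adipose libraries, 1 to 3 per pool, had been combined by the authors into 1 column per pool, so the pool was the replicate (n = 4 per tissue). The labels name separate pools of mice but do not say whether they were processed on separate days. Library names start with another letter in pool 1 of each tissue than in its other pools, and the labels do not say why.

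In the thymus, DP cells rearrange the T-cell receptor alpha locus and are tested by positive and negative selection before they become CD4 or CD8 T cells. Cells of this surface phenotype also occur outside the thymus. A part of the comparison below concerns molecular chaperones. HSP70 proteins, with their J-domain partners and exchange factors, and HSP90 proteins fold client proteins in the cytosol, HSP60 and HSP10 form the folding chamber of the mitochondrial matrix, and many of them are induced by heat shock factor 1 when proteins unfold.

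Values are normalised signals, the authors' scaled read numbers per gene and pool, and 1 read was worth a fixed amount in each column, so that whole reads could be recovered. Where 4 values follow each other, they are those of pools 1 to 4 in that order. Recovered reads ranged from 11577253 to 26551456 in the arch pools and from 14279190 to 33540294 in the adipose pools. Reads and genes detected did not pass the test between the tissues (exact two-sided permutation tests, p = 0.2 and 0.257). The 50 most abundant genes held 16.1% to 16.8% of the signal in arch and 12.4% to 14.5% in adipose pools, which did not overlap (exact permutation p = 0.0286, the smallest that 4 against 4 pools allow, and 0.0857 after adjustment over 3 measures).

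Every pool held transcripts of blood cells and of the T lineage. Ptprc (CD45), which is not particular to T cells, was at 1600.4 to 2304 CPM (reads scaled to a common total of 1000000) in arch and 1362 to 2563 CPM in adipose pools. Lck, the kinase that starts receptor signalling in T cells, was at 2112 to 2759 CPM in adipose pools. In arch it was at 962 CPM in pool 2 and at 1734 to 2638 CPM in the others. Transcripts of other cell types stood out in 3 of the 8 pools. Arch pool 4 had 6603 CPM over the 15 fibroblast markers, 2959 of them from Dcn, against 125 to 368 CPM in the other arch pools and 59.2 to 399 CPM in adipose pools. Arch pool 2 had 1930 CPM of smooth muscle markers and 1109 CPM of macrophage markers. Adipose pool 1 had 1995 CPM of B-cell markers and 297 CPM of macrophage markers. The other 5 pools were lower and not free of such transcripts. In arch pool 1, Acta2, Tagln, Dcn and Epcam were at 24.9, 17.1, 13.9 and 30.2 CPM, and in arch pool 3, Cd74, Tagln and Epcam were at 15.9, 5.57 and 8.36 CPM. Lyz2, Csf1r, C1qa, Ms4a1, Cdh5 and Pdgfra were at 0 in both of them and in adipose pools 2 to 4. Mean fibroblast sums were 1807 ± 3199 CPM for arch pools against 176 ± 152 CPM for adipose pools (SD, n = 4). The lowest p of the 15 marker lists was 0.0857 (exact permutation test, adjusted p = 0.857); with 4 pools per tissue a single list could not have passed after adjustment over 15, so the tissues are not shown to be alike in these sums.

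Of 13765 genes, 9106 reached a signal of 100 in at least 4 of the 12 columns and were tested with limma on log2(signal + 20), and a gene was called when its Benjamini-Hochberg adjusted p was under 0.05. Fold changes are on that scale, which understates the change of genes that are low in every pool and can exceed the ratio of the means where 1 pool is at or near 0. Few genes passed the test between arch and adipose DP cells: 16 were called (0.176% of those tested), 9 higher in arch (0.0988%) and 7 lower (0.0769%). Of the 9 that rose, 8 encode chaperones and the other is Id3. The 7 that fell, Gpr180, Neil1, Dgat1, Bambi-ps1, Txk, Ndrg3 and Selplg, share no list. The pool values of all 16 did not overlap between the tissues, which was so for 487 of all tested genes (5.35%), 224 with arch higher (2.46%) and 263 with arch lower (2.89%). Among the 263, 114 had no read in at least 1 arch pool, and among the 224, 17 had no read in at least 1 adipose pool. Arch pools varied more among themselves, with a median SD of 1.04 on the log2 scale against 0.73 for adipose pools, and the median log2 change over all tested genes was -0.17.

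The number of calls rested on single pools. It was 3 without arch pool 2, 5 without arch pool 4, 2 without adipose pool 2, 9 without adipose pool 3 and 2 without adipose pool 4, and 11 to 14 without each of the others. Without arch pools 2 and 4, limma called 0 genes (526 had an unadjusted p under 0.05), in a fit with 2 arch pools. The 2 pools left out had the highest sums of other cells' markers among arch pools. All 16 genes kept their direction in each of the 21 alternative analyses. Most of these analyses could not have turned it, since the pool values of the 16 do not overlap between the tissues. This holds for left-out pools, other filters and pseudocounts, array weights, the pool number as a block, and the arch and adipose columns alone. Only TMM scaling, edgeR and DESeq2, which scale the pools anew, could have turned it. On all pools, edgeR called 8 of the 16 and no other gene, while DESeq2 called 168 (65 higher, 103 lower), the 16 among them. Of the 8 chaperones, Hsp90aa1 and Hspe1 were called in all 8 fits that left out 1 pool, Hspd1 in 5, Dnajb1 in 3, Hspa8 and Hsph1 in 2 each, and Hsp90ab1 and Dnaja1 in 1 each. The last 4 and Hspd1 were not called by edgeR (adjusted p from 0.073 for Hspd1 to 0.258 for Hsp90ab1 and Dnaja1). Of the genes that fell, Gpr180 was called in 4 of the 8 fits that left out 1 pool and Selplg in 3. Dgat1, Txk and Bambi-ps1 were called in 2 each, and Ndrg3 and Neil1 in 1 each. With the arch and adipose columns alone, only Dgat1, Txk and Neil1 among them were called.

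**Figure D1:**
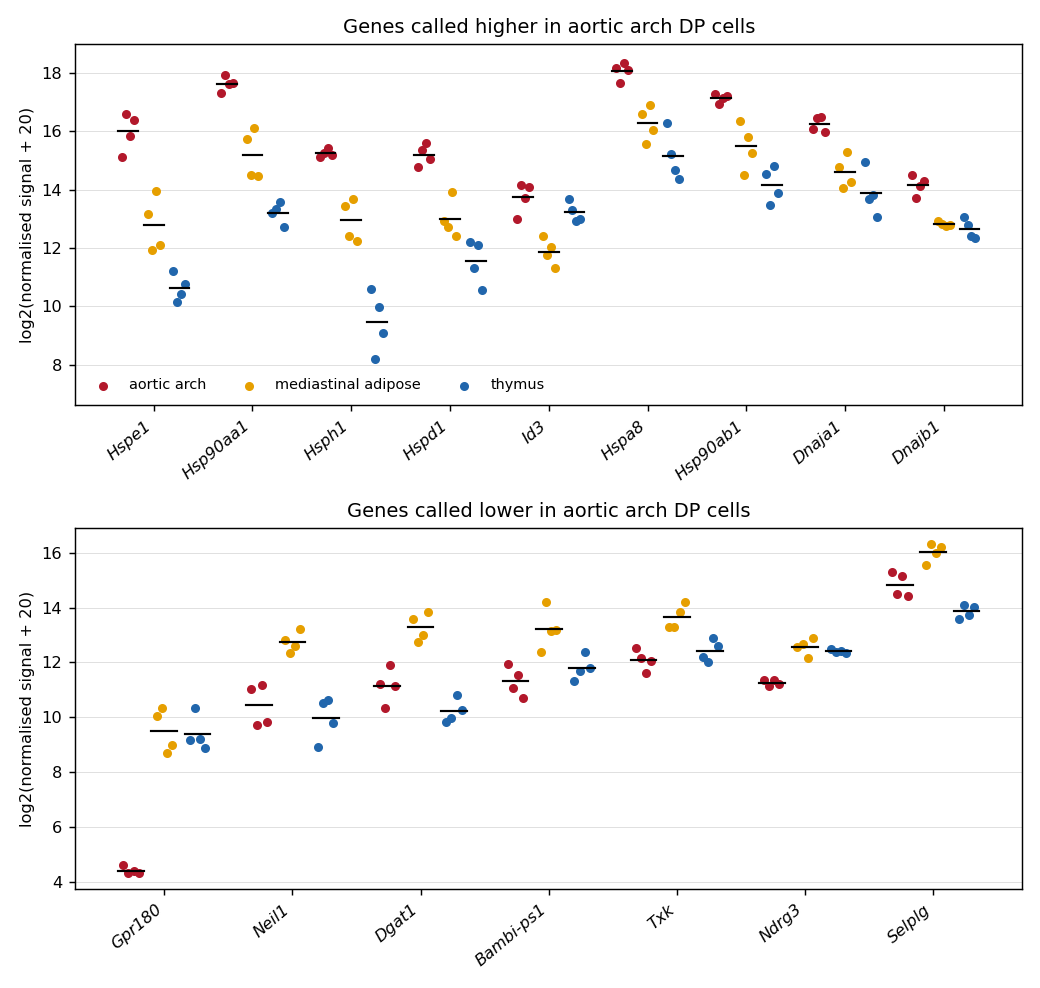
Each point is 1 pool's log2(normalised signal + 20) for the 9 genes called higher (top) and the 7 called lower (bottom) in arch DP cells, with pools 1 to 4 from left to right within a tissue and black bars for the mean of 4 pools. Red (arch) and orange (adipose) points do not overlap for any of the 16 genes, and thymus pools are drawn in blue for reference.

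The cytosolic HSP90 genes were among the most abundant transcripts of arch DP cells. Hsp90aa1 (chr12:110690605-110702728, minus strand, GRCm38), the stress-inducible HSP90, had signals of 165229, 249295, 204351 and 206119 in the 4 arch pools and 54451, 23030.1, 70353 and 22512 in the 4 adipose pools. Every arch pool exceeded every adipose pool by more than 2 times, and among adipose pools 1 and 3 were higher than 2 and 4. The means were 206249 ± 34347 and 42587 ± 23785 (SD, n = 4), a log2 change of 2.44 ± 0.30 (SE), adjusted p = 0.000813. Hsp90aa1 ranked 1 to 4 among all genes in arch pools and 10 to 117 in adipose pools. Hsp90ab1 (chr17:45567775-45573271, minus strand), the constitutive HSP90, had 160123, 127273, 145342 and 153476 in the 4 arch pools and 84002, 23293, 57875 and 39165 in the 4 adipose pools, a log2 change of 1.67 ± 0.31 (SE), adjusted p = 0.0277. The lowest adipose value was in pool 2 and the highest in pool 1, below all arch pools.

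Among genes of the HSP70 system, Hspa8, Hsph1, Dnaja1 and Dnajb1 rose. Hspa1a, Hspa1b, Dnaja2, Dnajb4 and Dnajb6 were not called, with log2 changes of 2.60, 2.60, 0.55, 0.94 and 0.61, nor were Hspa4, Hspa4l and Hspa13, at -0.24, -0.05 and -0.43. Hspa8 (chr9:40800984-40810087, plus strand), the constitutive cytosolic HSP70, stood at 293470, 206834, 334238 and 285588 in the 4 arch pools and 98055, 49004, 123740 and 68531 in the 4 adipose pools (log2 change 1.79 ± 0.32 (SE), adjusted p = 0.0276). It was the most abundant of the 8 chaperones in arch pools 1, 3 and 4, and its adipose values were again highest in pools 3 and 1. Hsph1 (chr5:149614287-149636376, minus strand), which encodes the HSP110 exchange factor, had a narrow range in arch, 35549.7, 39138, 44532 and 37630.2 in pools 1 to 4. Adipose values of Hsph1 were 11190.2, 5446, 13233 and 4803 (log2 change 2.31 ± 0.42 (SE), adjusted p = 0.0276). The adipose values fell into the same order of pools as for Hsp90aa1, with pools 1 and 3 above 2 and 4. Dnaja1 (chr4:40722150-40737149, plus strand), a J-domain partner of HSP70, had 70002, 90603, 92112 and 65059.5 in the 4 arch pools and 28217, 17185, 39692 and 19801 in the 4 adipose pools (log2 change 1.66 ± 0.31 (SE), adjusted p = 0.0277). Dnajb1 (chr8:83608193-83612653, plus strand), another J-domain partner and a classic heat shock gene, had 23357, 13391, 17734 and 19907 in the 4 arch pools and 7756, 7309, 6906 and 7140.5 in the 4 adipose pools (log2 change 1.32 ± 0.22 (SE), adjusted p = 0.0209). For Dnajb1 the 4 adipose pools lay within 6906 to 7756 and the lowest arch pool was pool 2. The annotation places small nucleolar RNA genes inside Hspa8 and part of Smu1 on the opposite strand of Dnaja1, and no source used here says whether the counting used strand.

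The mitochondrial chaperonin pair rose as well, and Hspe1 had the highest log2 change of the 9 genes above adipose tissue. Hspe1 (chr1:55088132-55091307, plus strand), which encodes HSP10, had 35799.7, 100009, 58835 and 86798 in the 4 arch pools and 9101, 3899, 15760.3 and 4336 in the 4 adipose pools. Even the lowest arch pool, pool 1, was above the highest adipose pool, pool 3. The means of Hspe1 were 70360.5 ± 28732 and 8274 ± 5519 (SD, n = 4), a ratio of 8.50 and a log2 change of 3.22 ± 0.40 (SE), adjusted p = 0.000813. Hspd1 (chr1:55077835-55088243, minus strand), which encodes HSP60, had 28363, 42014, 49774 and 34183 in the 4 arch pools and 7850, 6763, 15622 and 5369.9 in the 4 adipose pools (log2 change 2.20 ± 0.35 (SE), adjusted p = 0.0144). Hspd1 and Hspe1 are annotated head to head and overlap, so that without strand information reads in the overlap cannot be told apart. Hspa9, the HSP70 of the mitochondrial matrix, had a log2 change of -0.73 (95% interval -1.71 to 0.24) and was not called; it was chosen after its values were seen.

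The start sites of Hspd1 and Hspe1 lie 216 bases apart in RefSeq's table of GRCm38.p6. The DNA between them is shown because Hspe1, the called gene with the highest log2 change, and its partner share it. The longer gene models given above overlap at the Hspe1 end of this stretch and beyond it. The element searched was the binding motif of heat shock factors, written GAANNTTCNNGAA or TTCNNGAANNTTC so that both strands are read, in windows from 250 bases before to 50 bases after each start site. A shorter form, GAANNTTC or TTCNNGAA, was searched as well. Capitals mark matches, a word used here for the longer form only. The first line is chr1:55087933-55088147 on the plus strand, the whole stretch between the start sites. The second line is 30 bases of the Hsph1 window, chr5:149636287-149636316 on the minus strand.
Hspe1 and Hspd1: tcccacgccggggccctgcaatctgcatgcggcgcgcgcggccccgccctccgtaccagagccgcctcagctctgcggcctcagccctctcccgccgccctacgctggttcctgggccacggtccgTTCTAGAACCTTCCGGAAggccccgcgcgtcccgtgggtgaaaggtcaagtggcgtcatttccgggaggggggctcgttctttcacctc
Hsph1: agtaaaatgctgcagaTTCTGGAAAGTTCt
In the shared stretch 2 overlapping matches form a single run that begins 89 bases before the Hspe1 start site. The match in Hsph1 begins 37 bases into the transcript, counting the start site as base 1. RefSeq's table held 1 to 3 windows for each of 6 of the 9 genes that rose, and a gene's window with the most matches was taken. Of the 6 genes, 3 (Hspe1, Hspd1, Hsph1) had a match, of which Hspe1 and Hspd1 count the same DNA. Of the 7 genes that fell, 4 had a window and 0 had a match. Of all 27025 genes 0.662% had a match in any of their windows, which is the share to set beside these counts of genes. Over all 32851 windows it was 0.603%. Windows of Dnajb1, Dnaja1 and Id3 held no match. The shorter form occurred in 4 of the 6 genes that rose, in 1 of the 4 that fell (Txk) and in 17% of all genes. The genes without an entry were Hsp90aa1, Hsp90ab1, Hspa8, Dgat1, Selplg and Bambi-ps1. A match is a run of letters and no measure of binding.

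Together the 8 chaperone genes held 3.82, 3.94, 4.42 and 4.00% of the total signal in arch pools 1 to 4 and 1.54, 0.655, 1.67 and 0.852% across the 4 adipose pools. In the same order, the summed CPM of 96 markers from the 15 lists of other cell types, without each list's most abundant gene, was 408, 2023, 391 and 4793 in arch and 1967, 311, 206 and 259 in adipose pools. These markers include Gata3, which is also in the list of thymocyte identity genes, so the sums need not come from other cells alone. Adipose pools 1 and 3 had higher chaperone shares than adipose pools 2 and 4. Thymus pools ranged from 0.318% to 0.829%. With these genes left out, the share of the 50 most abundant genes was 14.0% to 14.6% in arch and 11.8% to 14.4% in adipose pools, which overlap. In RNA pooled from many cells, more cells with a transcript and more of it per cell cannot be told apart. Several chaperone genes have processed pseudogenes, and how reads matching more than 1 place were counted is not stated in any source used here.

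**Figure D2:**
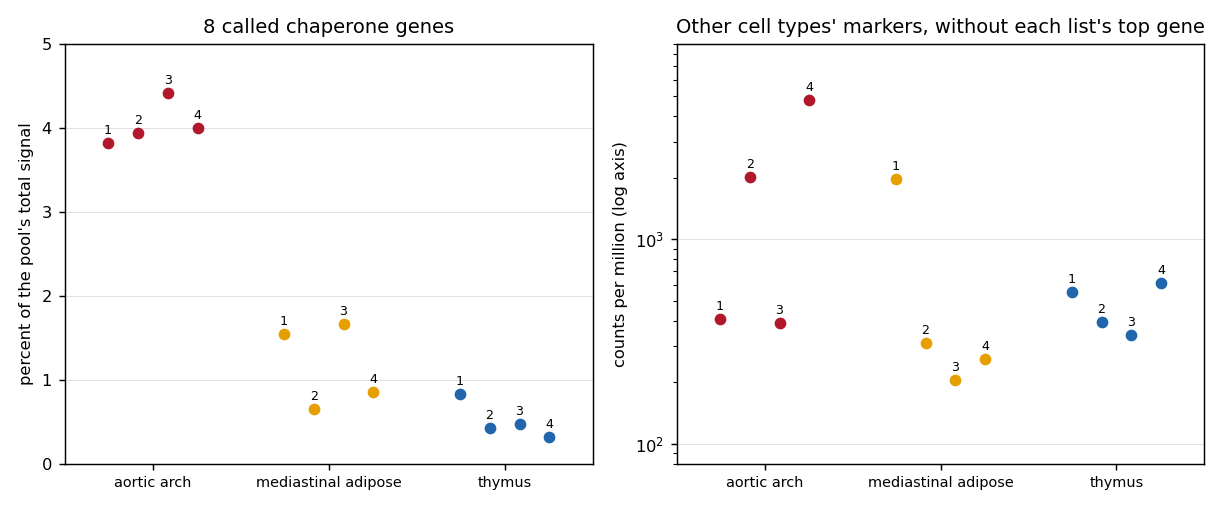
Left, the share of each pool's total signal held by the 8 called chaperone genes, and right, the summed CPM (log axis) of 96 markers from 15 lists of other cell types after removing each list's most abundant gene; each point is 1 pool, labelled with its number. Arch pools lie at 3.82% to 4.42% on the left, above all adipose pools; on the right, arch pools range from 391 to 4793 CPM and overlap with adipose pools, at 206 to 1967 CPM.

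Across the whole list of 28 heat shock and chaperone genes, 25 were tested, 8 rose and 0 fell. The median log2 change of the 25 was 0.94 (range -1.00 to 3.22), beside -0.17 over all tested genes. Arch was above adipose tissue in every pool for 14 of the 25 (56%), where 2.46% of all tested genes were. Hspa1a, the heat-inducible HSP70, had 3340.4, 9579, 4565 and 7202 in the 4 arch pools and 2680, 1724, 1441 and 93.6 in the 4 adipose pools. The pools did not overlap, the 4 adipose pools spread over a wide range, and the gene was not called, with a log2 change of 2.60 (95% interval 0.71 to 4.50). Thymus pools had no Hspa1a read. Several co-chaperones of HSP90 and HSP70, chosen after their values were seen, also lay above adipose tissue in every pool without being called: Ahsa1, the activator of the HSP90 ATPase, at 0.91 (95% interval 0.25 to 1.57), Stip1, which links HSP70 to HSP90, at 0.59 (95% interval 0.07 to 1.11), and Dnajb6, a J-domain protein, at 0.61 (95% interval 0.04 to 1.18). Other co-chaperones of the list, not called either, were mixed. Fkbp4 (1.03) also lay above adipose tissue in every pool, while the pools overlapped for Cacybp (1.18), Chordc1 (0.81) and Ptges3 (0.03). The lowest value of the whole list belonged to Hsf1, the gene of heat shock factor 1 itself. Without arch pools 2 and 4 the list's median was 0.95, and the 8 chaperones' log2 changes were 1.48 (Dnajb1) to 2.71 (Hspe1). Hsp90aa1 then had 2.29 with an adjusted p of 0.0777 in limma.

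**Figure D3:**
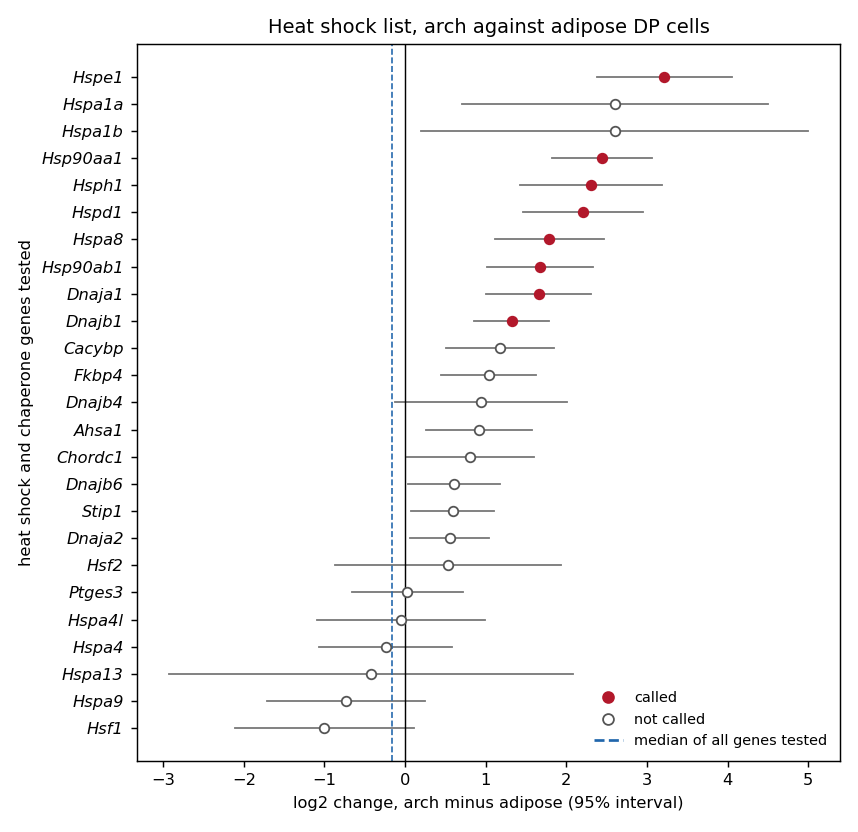
Log2 change (arch minus adipose, limma fit) of the 25 tested heat shock and chaperone genes with 95% intervals; filled red points are called genes, open points are not, and the dashed line is the median of all tested genes (-0.17). The 8 called genes lie between 1.32 and 3.22, and Hspa1a at 2.60 has a wide interval.

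Id3 was the one called gene above adipose tissue that is no chaperone. It encodes an inhibitor of E proteins, the transcription factors that hold developing T cells at their checkpoints, and is induced by receptor signals. Id3 (chr4:136143497-136145755, plus strand) had 8194, 18497, 13341 and 17552 in the 4 arch pools and 5466, 3416, 4139 and 2553 in the 4 adipose pools, a log2 change of 1.87 ± 0.29 (SE), adjusted p = 0.0128. Arch pool 1 was the lowest of the arch pools and adipose pool 1 the highest of the adipose pools, without overlap. The same gene stood at 12969.9, 10058, 7813 and 8076 in thymus pools 1 to 4, between the arch and adipose means, so that its lowest values were those of adipose tissue. Id2, a related inhibitor, had 2134, 1214, 1442 and 4392 in the 4 arch pools and 875, 722, 613 and 1151 in the 4 adipose pools; the log2 change was 1.28 (95% interval 0.12 to 2.44) and it was not called. Id3 was lost as a call without arch pool 2, adipose pool 2 or adipose pool 4 (adjusted p up to 0.0789 in limma) and was called by edgeR (adjusted p = 0.035).

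Among the genes that fell, Gpr180 (chr14:118137158-118163261, plus strand), which encodes a transmembrane protein, was nearly absent from arch DP cells. Its signals were 4.07, 0, 0.808 and 0 in the 4 arch pools and 1033, 1284, 392 and 484 in the 4 adipose pools. All 4 arch pools together held 6 reads and the adipose pools 3877, with a log2 change of -5.11 ± 0.89 (SE), adjusted p = 0.0236. Thymus pools had 549, 1273, 568 and 447, in the range of adipose tissue. The fitted change of so rare a transcript depends on the method: it was -6.89 with a pseudocount of 5 and -3.90 with one of 50, while edgeR and DESeq2, which work on recovered reads, gave -9.07 and -9.08.

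For Dgat1, Neil1, Txk and Selplg every adipose pool lay above every arch and every thymus pool. The comparison with thymus, which shares the adipose columns, was not tested here. Dgat1 (chr15:76502015-76511953, minus strand) encodes an enzyme of the last step of triglyceride synthesis. It had 2358, 1282, 3839 and 2225 in the 4 arch pools and 12188, 6765, 8201 and 14807 in the 4 adipose pools (log2 change -2.14 ± 0.37 (SE), adjusted p = 0.0236), and 889.8, 978, 1759.5 and 1208 in thymus pools. Arch pool 3 was the highest arch pool and still below adipose pool 2, the lowest of its tissue. Neil1 (chr9:57142800-57148305, minus strand), a DNA glycosylase of base excision repair, had 2091, 812, 2291 and 891 in the 4 arch pools and 7156, 5173, 6177 and 9459 in the 4 adipose pools (log2 change -2.30 ± 0.45 (SE), adjusted p = 0.0416). In thymus pools it had 462, 1434, 1553 and 855. Its adjusted p lay closest to the threshold of the 16, and 7 of the 8 fits that left out 1 pool did not call it, as was so for Ndrg3. Txk (chr5:72695978-72752777, minus strand), a Tec-family kinase of T cells, had 5875, 4556, 3137 and 4210.3 in the 4 arch pools and 10044, 9961, 14702 and 18896 in the 4 adipose pools (log2 change -1.57 ± 0.28 (SE), adjusted p = 0.026). The highest Txk values were in adipose pools 3 and 4, and thymus pools had 4712, 4123, 7637 and 6123. A processed pseudogene, Gm43717, lies within Txk on the opposite strand.

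Selplg (chr5:113818536-113832644, minus strand) encodes PSGL-1, the selectin ligand with which leukocytes roll on vessel walls. It had 40469.9, 23220, 36369 and 21789 in the 4 arch pools and 47709, 81426, 65282 and 75747 in the 4 adipose pools (log2 change -1.17 ± 0.22 (SE), adjusted p = 0.0277). The gap between the highest arch pool and the lowest adipose pool, both pool 1, was small. Without arch pools 2 and 4 its log2 change was -0.79, against -1.17 with them, with an adjusted p of 0.486 in limma. Thymus pools were lower than both, 12395, 17450.3, 13582 and 16676. Ndrg3 (chr2:156927345-156992056, minus strand), of the N-myc downstream regulated family, was even within arch, 2586, 2245, 2574 and 2380.4, and had 6090.5, 6529, 4532 and 7493 in adipose pools (log2 change -1.30 ± 0.24 (SE), adjusted p = 0.0277). Thymus pools, at 5684, 5355, 5395 and 5117, lay in the adipose range, so the low values were those of arch. Bambi-ps1 (chr2:122466935-122467526, minus strand), an annotated processed pseudogene named here after its values were seen, had 3944, 2100, 2949 and 1628 in the 4 arch pools and 5249, 19012, 9102 and 9393 in the 4 adipose pools (log2 change -1.93 ± 0.37 (SE), adjusted p = 0.0361). Its spread in adipose tissue was wide, with pool 2 far above pool 1.

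No gene of the thymocyte identity list was called. Of 40 tested thymocyte identity genes 0 were called by limma, 2 had an unadjusted p under 0.05 in each direction, the pools did not overlap for Ptcra (arch higher) and Cd1d1 (arch lower, log2 change -0.65), and the median log2 change was 0.02. The coreceptor gene Cd4 had 10233, 5746, 5191 and 9142 in the 4 arch pools and 9713, 9297, 8575 and 19714 in the 4 adipose pools, a log2 change of -0.61 (95% interval -1.19 to -0.03). Cd8b1, the CD8 beta chain, had 34045, 28341, 34726 and 31829 in the 4 arch pools and 17302, 46131, 34883 and 24624 in the 4 adipose pools, a log2 change of 0.16 (95% interval -0.31 to 0.63). In both genes the pools overlapped, with adipose pool 4 highest for Cd4 and adipose pool 2 highest for Cd8b1. Cd8a stood at 0.10 (95% interval -0.39 to 0.59), and Cd3e, a signalling chain of the receptor complex, at -0.16 (95% interval -0.58 to 0.27). Dntt, which encodes terminal transferase, had 32976, 25411, 26599 and 31574 in the 4 arch pools and 19211, 44132, 25681 and 29416 in the 4 adipose pools and a log2 change of 0.03 (95% interval -0.38 to 0.44), the narrowest interval of these genes around 0. Rag1 and Rag2, the recombinase genes, had log2 changes of 0.53 (95% interval -0.17 to 1.23) and -1.70 (95% interval -2.97 to -0.44). Rag2 varied most, 2219, 5572, 1146 and 393 in arch pools and 1629, 8031, 8425 and 6008 in adipose pools. Ptcra, the pre-receptor alpha chain, had 1095, 1276, 1155 and 1348 in the 4 arch pools and 198, 716, 309 and 554 in the 4 adipose pools. Its pools did not overlap, but with a log2 change of 1.57 (95% interval 0.52 to 2.61) it was not called; thymus pools were above both tissues, at 1677, 2596, 2916 and 2422. Cd24a, a surface protein of immature thymocytes, was at 0.59 (95% interval 0.12 to 1.07). The intervals leave changes of these sizes possible, and a gene that was not called is not shown to be equal.

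**Figure D4:**
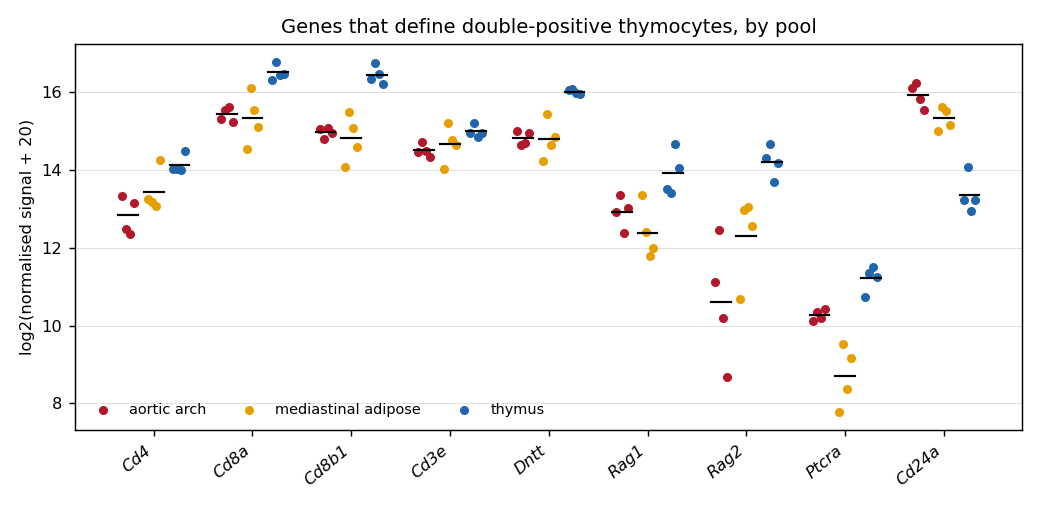
Log2(normalised signal + 20) per pool for 9 genes of the thymocyte identity and CD3 signalling lists, not all particular to the DP stage. Pools 1 to 4 run from left to right within a tissue, and black bars are the mean of 4 pools. Arch (red) and adipose (orange) points overlap for 8 of the 9 genes; for Ptcra all arch points lie above all adipose points.

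Receptor signalling genes held 1 call. In the list of CD3 and proximal signalling genes 37 were tested, Txk fell and none rose, with a median log2 change of -0.10. Fyb, an adaptor of the receptor pathway, had the next smallest p, at 9868, 8444, 8968 and 10409 in arch and 13976, 13922, 14812 and 17207 in adipose pools. The pools of Fyb did not overlap and it was not called (log2 change -0.67 (95% interval -1.05 to -0.28)). Genes of egress and later maturation gave no call among 19 tested (median log2 change -0.50), and 3 had an unadjusted p under 0.05 in each direction. Of these Klf2, a transcription factor of T-cell egress, had 3652, 3057, 3172 and 3444 in the 4 arch pools and 1297, 71.2, 649 and 413 in the 4 adipose pools, and Cd69, an early activation marker that holds cells in tissue, had 3438, 12591, 7553 and 3429.8 in the 4 arch pools and 2506, 1888, 2659 and 304 in the 4 adipose pools. Both lay above adipose tissue in every arch pool, with log2 changes of 2.95 (95% interval 1.09 to 4.82) and 2.02 (95% interval 0.68 to 3.36). Most of the list went the other way: 8 of the 19 had a positive log2 change, and the lowest was -3.25. Among 8 genes with an adjusted p of 0.05 to 0.1, named after their values were seen, were Stat4, Tespa1 and Wbp5. Stat4, which carries interleukin-12 signals, had 708, 713, 2141 and 141 in the 4 arch pools and 4857, 5243, 3863 and 5478 in the 4 adipose pools. Tespa1, needed for receptor signalling in thymocytes, had 3653, 5743, 5051 and 3708 in the 4 arch pools and 1657, 2324, 1879 and 1639.5 in the 4 adipose pools. Wbp5 had 11007, 11909.6, 11642 and 11782 in the 4 arch pools and 4015, 4612, 6846 and 3318 in the 4 adipose pools. Arch was below adipose tissue in every pool for Stat4 and above it for Tespa1 and Wbp5. The other 5 in that range, Rab37, Pld3, Slc39a6, Ttc15 and Fcho1, had log2 changes of -4.68, -1.48, -4.37, -4.03 and -2.95.

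Immediate early genes, which cells switch on within minutes of a stimulus or of handling, had a list median of 0.76, and limma called 0 of 27 tested (6 had an unadjusted p under 0.05, all higher in arch). Without arch pools 2 and 4 the median was 0.42, lower than those of the early double-negative (0.61) and cholesterol synthesis lists (0.50). Ier2 had 5881, 8971, 8906 and 8206 in the 4 arch pools and 4330.3, 3798, 3272 and 2766 in the 4 adipose pools, without overlap, and a log2 change of 1.17 (95% interval 0.50 to 1.84). Junb, a subunit of the AP-1 factor, had 13039.9, 15459, 10458 and 11110.4 in the 4 arch pools and 8891, 4926, 4983 and 5482 in the 4 adipose pools. Its lowest arch pool was above its highest adipose pool, pool 1, and its log2 change was 1.07 (95% interval 0.16 to 1.98). Fos, the partner of Jun proteins, overlapped between the tissues, 2316, 7150.3, 2665 and 1797 in the 4 arch pools and 2653, 790, 1796 and 744 in the 4 adipose pools (log2 change 1.19 (95% interval -0.59 to 2.98)). Irf1 had a log2 change of 1.07 (95% interval 0.40 to 1.74). Nr4a2 had 6569, 2538, 5513 and 4627 in the 4 arch pools and 2906, 0, 879 and 1154 in the 4 adipose pools, which overlap, and a log2 change of 3.19 (95% interval 0.41 to 5.98) that rests on adipose pool 2, which held no read: it was 1.65 without that pool, and 1.93 by edgeR. Crem, a cAMP-responsive repressor, had 23029, 47576, 23502 and 24993 in the 4 arch pools and 17213, 9139, 22415 and 19562 in the 4 adipose pools, where arch pool 2 stood far above the other 3; its log2 change was 0.80 (95% interval 0.16 to 1.45). How these genes and the chaperones relate to handling of the 2 tissues was not tested.

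Ribosomal protein genes were on average above adipose tissue by small amounts that were not called and were uneven between arch pools. The list's median, as log2 signal minus each gene's adipose mean, was 0.28, 0.60, 0.05 and 0.78 in arch pools 1 to 4. In adipose pools it was -0.06, 0.12, 0.18 and -0.19, so the tissues overlap. Single genes separated by pool in 11 cases (14.1%), all with arch higher, beside 2.46% of all tested genes. Of 78 tested, 77 had a positive log2 change, beside 42.0% of all tested genes, with a median of 0.42 and a range of -0.01 to 0.70, yet limma called 0 (34 had an unadjusted p under 0.05, all higher in arch). Rpl18 had 36528, 52095, 39784 and 50487 in the 4 arch pools and 24554, 33364, 35254 and 25536 in the 4 adipose pools and a log2 change of 0.59 (95% interval 0.23 to 0.96). Rps14, of the small subunit, had a log2 change of 0.58 (95% interval 0.20 to 0.96). In Rpl18 arch pools 2 and 4 were the highest, and without them the list's median was 0.16, beside 0.02 over all genes. The mitochondrial ribosome gave a median of 0.18 over 76 genes and the respiratory chain 0.05 over 78, with 0 calls each. Of them Mrpl17, Mrpl43, Cox8a and Ndufs7 had log2 changes of 1.05, 0.73, 0.51 and -1.14. The 8 subunits of TRiC, the cytosolic chaperonin that folds actin and tubulin, had a median of 0.38 and no call. Its subunit genes Cct5 and Cct8 had 0.53 (95% interval 0.14 to 0.92) and 0.63 (95% interval 0.09 to 1.16). The unfolded protein response of the endoplasmic reticulum had a median of 0.37 over 23 genes with no call; Dnajc3 stood at 0.60 and Pdia3, a disulfide isomerase, at -0.59.

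**Figure D5:**
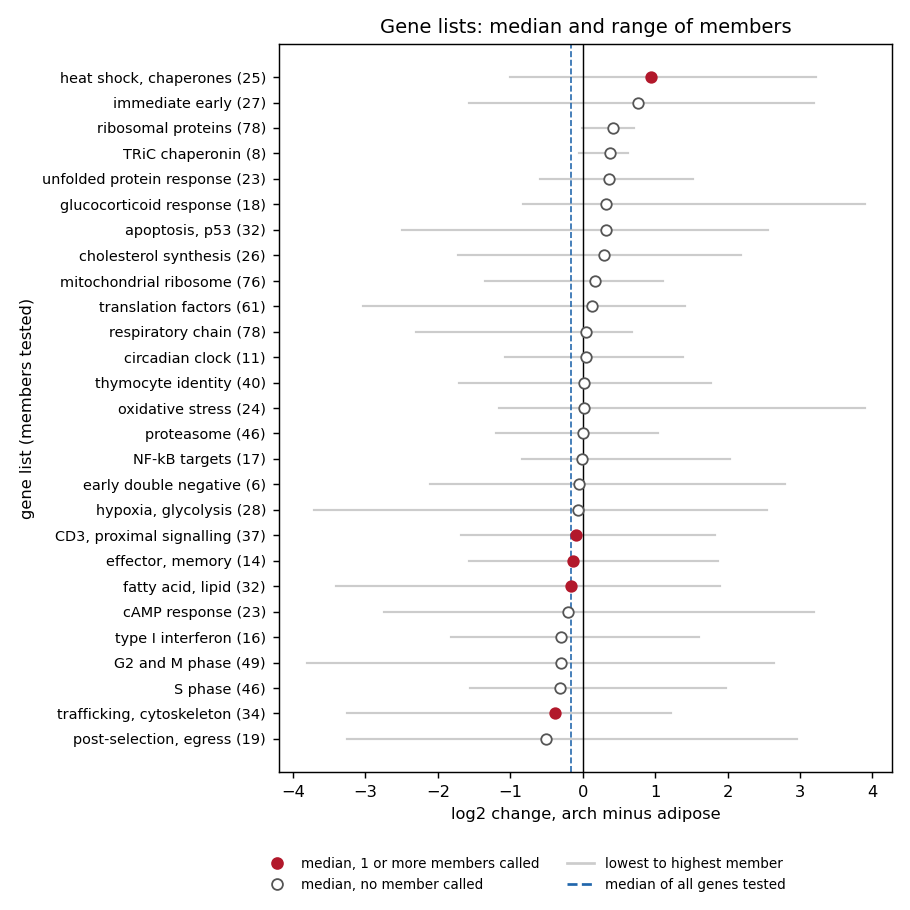
Median log2 change (arch minus adipose) of the tested members of 27 gene lists, with grey lines from the lowest to the highest member; filled red points mark lists with at least 1 called member, and the dashed line is the median of all tested genes (-0.17). On all pools the heat shock list has the highest median (0.94), followed by immediate early genes (0.76); without arch pools 2 and 4 these medians are 0.95 and 0.42, and immediate early genes are no longer second.

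Metabolic and stress lists other than the heat shock list held 1 call in all. In the fatty acid and lipid list 32 genes were tested, Dgat1 fell and the median was -0.16. Acaca, the rate-limiting carboxylase of fatty acid synthesis, had 26.1, 0, 0.808 and 0 in the 4 arch pools and 401, 141, 196 and 309.9 in the 4 adipose pools; it was not called (log2 change -3.40 (95% interval -5.70 to -1.11)). Cholesterol synthesis (26 tested, median 0.29), hypoxia and glycolysis (28, -0.06), oxidative stress (24, 0.01) and glucocorticoid response (18, 0.32) had no call. In the oxidative stress list, Ftl1, the ferritin light chain, had 108472, 160952, 121300 and 124282 in the 4 arch pools and 80182, 92951, 97716 and 71299 in the 4 adipose pools. Arch was above adipose tissue in every pool, with a log2 change of 0.59 (95% interval 0.29 to 0.88), and Gpx1, a glutathione peroxidase, gave 0.95 (95% interval 0.45 to 1.44). Nr3c1, the glucocorticoid receptor, had 5748, 8832, 6713 and 7774 in the 4 arch pools and 4584, 2475, 3578 and 2914 in the 4 adipose pools, and Txnip, a glucocorticoid-responsive inhibitor of thioredoxin, had 9950.3, 7672, 9284 and 11263 in the 4 arch pools and 14628, 17327, 13329 and 23147 in the 4 adipose pools. The 2 genes lay in opposite directions without overlap, at 1.12 (95% interval 0.50 to 1.73) and -0.82 (95% interval -1.25 to -0.39).

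The remaining lists held 2 calls, Id3 and Selplg. Apoptosis and p53 genes (32 tested) had a median of 0.32, NF-kB targets (17) -0.01, type I interferon genes (16) -0.30, cAMP response genes (23) -0.21, S phase genes (46) -0.31 and G2 and M phase genes (49) -0.31, all with 0 calls by limma. Without arch pools 2 and 4 the median over all tested genes was 0.02 in place of -0.17, and 10 of the 27 list medians turned sign, among them those of S phase (0.16), G2 and M phase (0.01) and cAMP response genes (0.21). Proteasome genes (46 tested) had a median of 0.01, translation factors (61) 0.13, clock genes (11) 0.04 and early double-negative genes (6) -0.05, again with 0 calls. Effector and memory genes (14, -0.13) held Id3, and trafficking and cytoskeleton genes (34, -0.39) held Selplg. In the trafficking list Coro1a, an actin regulator of T cells, had a log2 change of -0.71 (95% interval -1.19 to -0.23). Pmaip1 and Fas, both death genes, stood at 2.56 and 0.79, Ly6e of the interferon list at -0.35, and Lig1 and Mcm3, which replicate DNA, at -1.43 and -1.06. None of these was called. Aurkb, a mitotic kinase, had 386, 0, 917 and 3.11 in arch and 782, 2465, 1653 and 2026 in adipose pools, with arch pools 2 and 4 at or near 0 (log2 change -3.81 (95% interval -6.05 to -1.57)). Hes1, a Notch target, had 1250, 1954, 1438 and 1603 in arch and 510.2, 166, 47.5 and 368 in adipose pools (log2 change 2.79 (95% interval 0.48 to 5.10)).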

How the data were processed

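Female C57BL/6J mice were sampled in pools, and sorted DP cells of each tissue were sequenced from polyadenylated RNA. The submitters' processing notes name FastQC 0.11.5, STAR 2.6.0c and the build GRCm38; no source used here gives the counting tool, its treatment of strand or the annotation. The authors deposited 1 normalised signal per gene and pool, with libraries of a pool combined. All 120369 values above 0 (100%) were whole multiples, within 0.01, of the smallest value in their column, which gave recovered reads for edgeR, DESeq2 and CPM.

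The edgeR test planned for raw counts was therefore an alternative, and it called 8 genes. The main test was limma 3.58.1 in R 4.3.3 with an intensity trend on log2(signal + 20), the 12 columns in 1 fit with tissue as the only term, contrast arch minus adipose, two-sided. The filter of 100 equals 4.91 CPM and the pseudocount 0.983 CPM in the median column. Errors are SE from this fit or SD over 4 pools. Alternatives were edgeR 4.0.16, DESeq2 1.42.0, TMM scaling, other filters and pseudocounts, array weights, the arch and adipose columns alone, the pool number as a block and left-out pools. The limma code was tested on simulated data. Reads carry no molecular identifiers, so they are not independent molecules.

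Same-numbered arch and adipose pools did not deviate together (correlations of deviations 0.01, 0.04, 0.02 and -0.03), so the numbers were not taken to pair them. Named genes were, per direction, up to 12 called genes of largest change with a mean of at least 200 and pools that do not overlap, leaving out predicted genes and pseudogenes, every called member of 27 gene lists, the 2 members of each list with the smallest p, and 14 set genes. Some genes the rule names are not reported here. The comparison, the lists and 15 marker lists were chosen with earlier results of these data known. Of the tested symbols 8257 (90.7%) matched the GENCODE M21 annotation of GRCm38, from which positions come. Promoter sequences are from RefSeq.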

Additional observations from a re-analysis of the deposited data

Results flagged for a closer look

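In groups of 4 pools, a pool whose gap to the next exceeded 0.829 of the group's range was taken to stand apart. It was so in 23 of 208 groups examined. Chance gives this in about 1 of 20 groups only for normally distributed values. The values here were untransformed, and a group with reads in 1 pool alone always passes. The 23 therefore cannot be read as more than chance gives. Among arch pools, pool 4 stood apart in fibroblast markers (6603 CPM), and pool 2 in smooth muscle (1930 CPM) and macrophage markers (1109 CPM). Arch pool 1 stood apart in mast cell markers (14.9 CPM against 0 to 0.259 CPM). The signals of Fos (7150.3) and Crem (47576) were highest in arch pool 2, and that of Cct8 (23507) in arch pool 4. Arch pool 3 had the highest signals of Nrarp (119.5), Slc39a6 (377), Bnip3 (516, with 80.8 in arch pool 4), Eif2ak4 (10.5), Pfkm (13.7) and Rab37 (17.8), and arch pool 1 that of Acaca (26.1). These 7 genes were at or near 0 in most arch pools. Adipose pool 1 stood apart in B-cell (1995 CPM), macrophage (297 CPM), endothelial (599.8 CPM) and adipocyte markers (196 CPM) and in the signals of Junb (8891) and Nfkb1 (1377). The signal of Cd4 was highest in adipose pool 4 (19714) and that of Abca1 in adipose pool 2 (341). The only mesothelial marker measured was at 0.0335 CPM in adipose pool 3 and 0 in the others.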

How the results depend on the processing

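The 16 called genes (9 higher in arch, 7 lower) kept their direction in all 21 alternative analyses, but the calls did not all hold. Since the pool values of these genes do not overlap between the tissues, only TMM scaling, edgeR and DESeq2, which scale the pools anew, could have turned a direction. The other alternatives could not. edgeR called 8 (4 and 4), DESeq2 168 (65 and 103), a filter at 10 left 9 (5 and 4), no filter 2 (2 and 0) and a pseudocount of 5 gave 9 (5 and 4). TMM scaling, a pseudocount of 50, array weights, and the arch and adipose columns alone gave 17, 17, 19 and 12, the last with 3 lower. Leaving out 1 pool gave 2 to 14 calls, 2 to 9 of them higher and 0 to 9 lower. The count of higher genes was 4, 3, 5 and 4 without arch pools 1, 2, 3 and 4 and 2 without adipose pool 2 or 4; that of lower genes was 0 and 1 without arch pools 2 and 4 and 4, 0, 2 and 0 without adipose pools 1 to 4. Limma called 0 genes without arch pools 2 and 4, also with thymus pool 3 left out or, an analysis chosen after seeing the data, with adipose pool 1 left out; 526, 627 and 570 genes had an unadjusted p under 0.05. The cause was not tested, and no other pair of arch pools was left out together.

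With the pool number as a replicate block, 12 of the 16 were called (9 higher, 3 lower), although the numbers are not known to pair the pools; 3 of the 8 pools correlated best with the pool of its own number. Small changes that were not called turned sign: Cd8a (-0.0224 by edgeR, -0.12 without arch pools 2 and 4 and adipose pool 1, and -0.16 to 0.36 without 1 pool), Cd8b1 (-0.0853 to 0.39 without 1 pool), Cd3e (-0.37 to 0.0249 without 1 pool) and Dntt (-0.0426 by edgeR, -0.0147 by DESeq2, -0.12 without arch pools 2 and 4 and adipose pool 1, and -0.15 to 0.25 without 1 pool). No marker list and no library measure passed its test under any alternative, none of which leaves enough pools for a small p once 1 is left out. Of the medians of the 27 lists, 21 of 567 values moved by more than the spread between pools. Depth limits the genes that few reads support; arch pools 2 and 4 and adipose pool 2 had the fewest reads of the 8.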
